A study of Mus musculus with 20 samples.

Results

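Mouse embryonic stem cells sorted for high Nanog and high Sox2, called state 1, were compared with the unsorted culture they came from, called the total population. The comparison took all 29692 genes of the RNA-seq table. Its values come from 6 of the 20 libraries of the series, 3 of state 1 and 3 of the total population. The cells were cultured with 10% fetal bovine serum and leukemia inhibitory factor (LIF), and RNA was taken after flow cytometry; the sources used here do not give the cell line, the reporters or antibodies behind the gates, the use of feeder cells, or whether the total population was passed through the sorter. State 2 (low Nanog, high Sox2) and state 3 (low for both), also of 3 libraries each, are given beside the comparison to show where the total population lies among the sorted cells. The authors deposited 1 merged, normalized value per gene and group, so no value below has an error from replicates, and no test over libraries could be run. Whether the 3 libraries of a group came from separate cultures is not stated.

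Nanog and Sox2 are transcription factors of pluripotent cells, which can give rise to every tissue of the embryo. In serum and LIF, mouse embryonic stem cells are mixed: Nanog and other factors of the naive state, the state of the epiblast before implantation, vary from cell to cell. Cells with less of them can carry RNAs of the formative or primed epiblast, which follows implantation, or of extraembryonic and germ layer lineages. An unsorted culture holds state 1 cells together with those that the gate leaves out, and in such bulk RNA a smaller number of cells of a type and less RNA per cell cannot be told apart.

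The gate was visible for Nanog and hardly for Sox2. Nanog (ENSMUSG00000012396.12, chr6:122707489-122714633 in the GRCm38 annotation of RefSeq) stood at 4145 in state 1, 2783 in the total population, 743 in state 2 and 440.0 in state 3. State 1 was thus the highest of the groups for Nanog, with the total population next, and the log2 ratio of state 1 to the total population, log2((value + 1)/(value + 1)), was 0.57. Sox2 (ENSMUSG00000074637.7, chr3:34649995-34652461) stood at 4155 in state 1, 3954 in the total population, 3167 in state 2 and 1306 in state 3, a log2 ratio of 0.07. Pou5f1, which encodes the pluripotency factor Oct4, stood at 13810 in state 1 and 12174 in the total population, a log2 ratio of 0.18. Nanog defined the gate, so its difference is a check of the labels and not a finding.

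A difference was called where the authors' EBSeq posterior probabilities, summed over the patterns that set state 1 apart from the total population, reached 0.95. Nanog was called (posterior 1.00); Sox2 (0.0076) and Pou5f1 (0.011) were not. Over all genes, 588 of 29692 were called (1.98%), with 210 higher in state 1 (0.707%) and 378 lower (1.27%), and the posteriors put the expected false share of these calls at 0.880%. The called genes that were higher in state 1 differed little, by a median log2 ratio of 0.39, whereas those that were lower differed by a median of -1.0. Among the 16424 genes with a mean of at least 5, 60 were at least 2-fold higher in state 1 (0.365%) and 390 at least 2-fold lower (2.37%), of which 7 and 182 were called. The median gene at this level had a log2 ratio of 0.0047. Of protein-coding genes, which fill most of the lists below, 3.11% were called in either direction. The share over all genes is thus a low background for these lists, and 1 call in a short list is not read as an excess. Any difference among the groups had a summed probability of 8828 genes, and 81.8% of it lay in patterns that set state 1 equal to the total population.

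**Figure D1:**
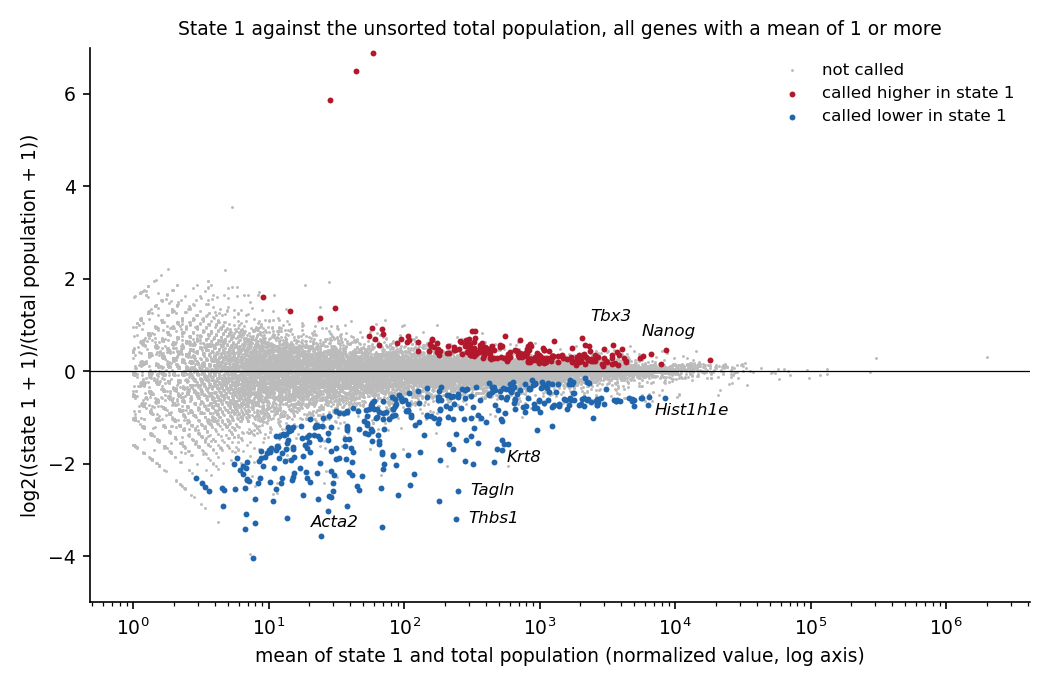
Log2 ratio of state 1 to the total population against the mean of both groups (log axis), 1 point per gene with a mean of 1 or more; coloured points are the 588 called genes and grey points were not called. The 378 genes called lower in state 1 reach further from 0 than the 210 called higher, apart from 3 called noncoding or pseudogene features above 5 that were listed at 0 in the total population.

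Where the total population was set apart, it lay between the sorted states for nearly all genes. For 353 genes the total population was set apart from every state at a posterior of 0.95; in 351 of them its value lay within the range of the 3 states, in 0 it lay above them and in 2 below (0.00674% of all genes). Those 2 are the pseudogenes Rpl7a-ps11, listed at 0 in the total population against 88.9, 35.7 and 87.2 in states 1, 2 and 3, and Gm8178, at 0 against 57.2, 51.0 and 32.1. They were chosen after their values were seen. These counts rest on the inferred order of the patterns: with state 1 and the total population exchanged, 573 genes would be set apart and 11 of them would lie outside the states. Calls aside, 16424 genes had a mean of at least 5. For 2479 of them the total population lay above all 3 states, for 2061 below and for 11884 within their range. Among genes with a mean of at least 50, 11304 in number, the median log2 distance outside the range was 0.051 above and 0.047 below. At this level the total population was 1.5-fold above the highest state for 6 and 1.5-fold below the lowest for 4, and none of these 10 was called. Fos, an immediate-early gene that responds fast to stimuli, is 1 of the 4: it stood at 55.2 in the total population, 86.1 in state 1, 125 in state 2 and 227 in state 3, with a posterior of 0.42 for state 1 against the total population.

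Naive pluripotency genes were higher in state 1, but by less than 2-fold. All 25 listed genes had a log2 ratio above 0 (median 0.37), 6 were called higher (24.0%, against 0.707% of all genes) and none lower. Nanog, which defined the gate, is among the 25 and among the 6 called, so its part in these counts is not a finding. In all 25 the total population lay within the range of the states. Tbx3, a T-box factor that supports self-renewal, stood at 2550 in state 1, 1545 in the total population, 372 in state 2 and 219 in state 3, a log2 ratio of 0.72 (ENSMUSG00000018604.18, chr5:119670534-119684724). Jam2, a junctional adhesion molecule, stood at 1572 in state 1 and 990.6 in the total population (log2 0.67), and Prdm14, a regulator that holds back differentiation and DNA methylation, at 347 and 241 (log2 0.53). The total population was closer to state 1 than to states 2 and 3 for each of these.

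Zfp42 (Rex1), a classical marker of the naive state, was called with 4343 in state 1 against 3383 in the total population (log2 0.36), and Manba, a lysosomal mannosidase, with 1357 against 997 (log2 0.44). The other 19 members were not called, some with ratios as large: Esrrb, a nuclear receptor of the naive network, stood at 9206 in state 1 and 6799 in the total population (log2 0.44, posterior 0.82), and Tfcp2l1, a LIF-responsive factor, at 16245 and 12042 (log2 0.43, posterior 0.34). Zfp57, a zinc finger protein that keeps methylation at imprinted genes, was the 1 called member of 14 in the DNA methylation list. That is 7.14%, against 0.707% of all genes called higher, and rests on 1 gene. Zfp57 stood at 4718 in state 1, 3391 in the total population, 1173 in state 2 and 1014 in state 3 (log2 0.48). General pluripotency genes, which stay on after implantation, showed no call among 20 (median 0.03); Trim28, a co-repressor, stood at 33028 and 29582 (log2 0.16).

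**Figure D2:**
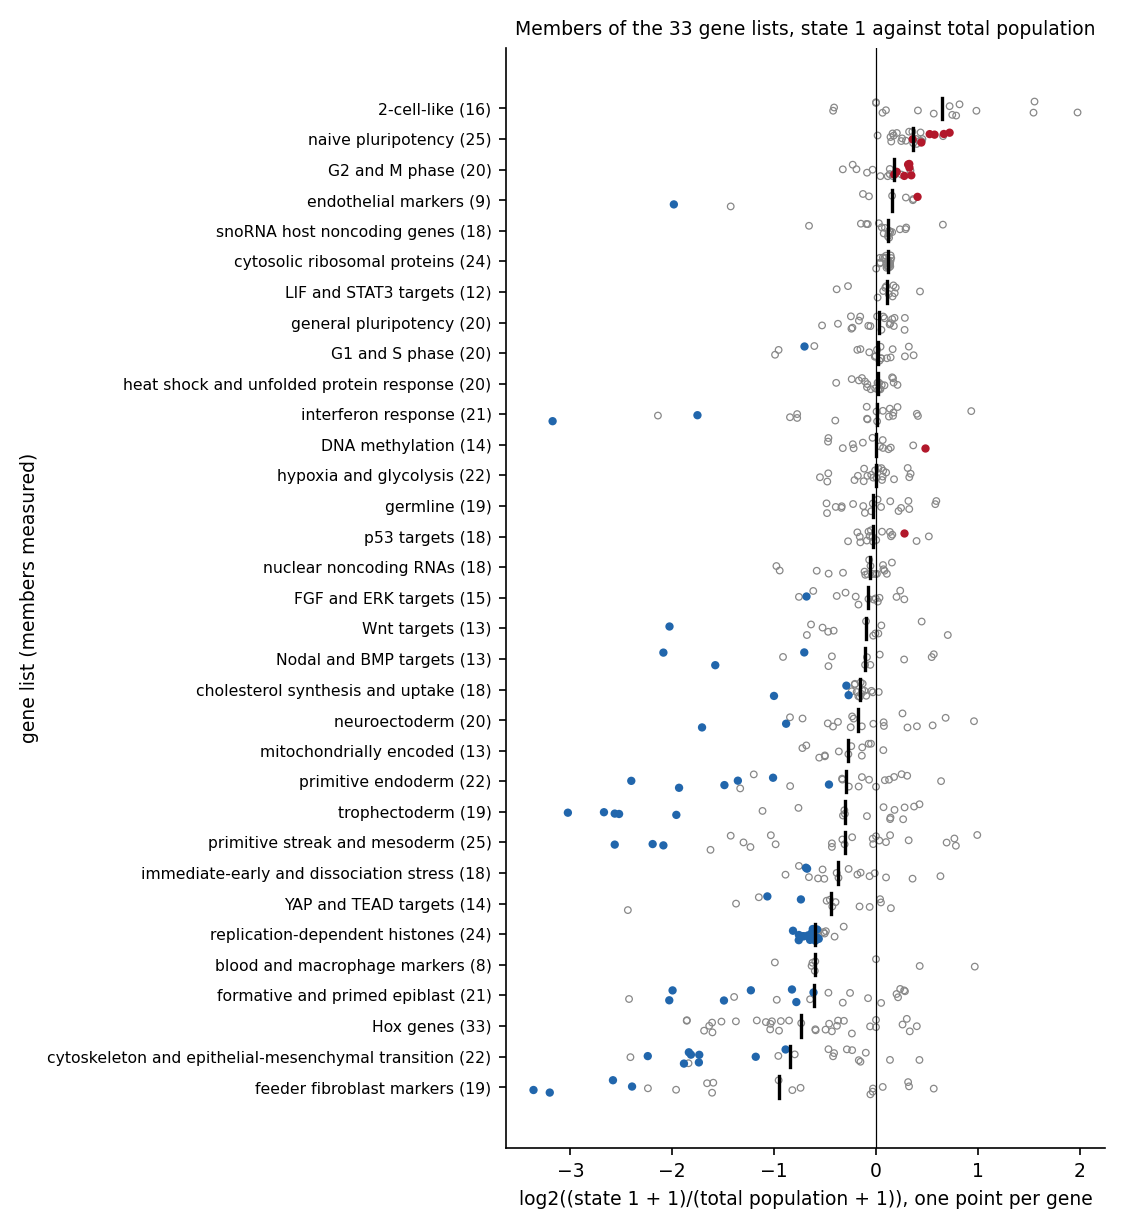
Log2 ratio of state 1 to the total population for each member of the 33 gene lists, with the number measured in brackets; filled red points were called higher in state 1, filled blue points lower, open points were not called, and black bars are list medians (vertical jitter has no meaning). Called members sit above 0 in the naive and the G2 and M phase lists. They sit below 0 in the formative, extraembryonic, germ layer, contractile and histone lists, and on both sides in the endothelial list. The 2-cell-like list, highest by median, has 1 member with a mean of at least 5.

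Genes of the formative and primed epiblast were lower in state 1 than in the unsorted culture. Of 21 listed genes, 7 were called lower (33.3%, against 1.27% of all genes) and none higher, and the median log2 ratio was -0.61. Lef1, a transcription factor of the Wnt pathway, stood at 33.6 in state 1, 140 in the total population, 375 in state 2 and 384 in state 3, a log2 ratio of -2.03 (ENSMUSG00000027985.14, chr3:131110297-131224357). Pou3f1 (Oct6), a POU factor of the epiblast after implantation, stood at 151 in state 1, 426 in the total population, 1526 in state 2 and 1947 in state 3 (log2 -1.49). For both, state 1 was lowest and the total population second lowest. Pim2, a serine/threonine kinase, stood at 197 in state 1 and 462 in the total population (log2 -1.23). Sox11 (log2 -0.82), Cldn6 (-0.78), Zic2 (-0.61) and the keratin Krt18 (-2.0) were also called. Members without a call split both ways: Fgf5, a growth factor of the formative epiblast named here after its values were seen, stood at 2.93 and 20.1 (log2 -2.42, posterior 3e-06), and the formative factor Otx2 at 308 and 265 (log2 0.22).

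Markers of the extraembryonic and germ layer lineages were lower in state 1 wherever they were called, and most were not called. In the primitive endoderm list, 6 of 22 were called lower (27.3%, against 1.27% of all genes) and none higher, with a median of -0.30. Foxa2, an endoderm factor, stood at 5.77 in state 1, 34.8 in the total population, 143 in state 2 and 100.3 in state 3 (log2 -2.40; ENSMUSG00000037025.11, chr2:148042877-148046969). The basement membrane collagens Col4a2 and Col4a1 stood at 117 and 277 in state 1 against 450.0 and 779 in the total population (log2 -1.93 and -1.49). Dab2, an endocytic adaptor, had a log2 ratio of -1.36, the endocytic receptor Lrp2 of -1.01 and the laminin chain Lamb1 of -0.46. Among the factors that define the primitive endoderm, Gata6 stood at 5.51 in state 1 and 7.20 in the total population. Gata4 stood at 15.8 and 20.1, and Sox17 at 1.6 and 0.67. None of these was called, and Sox17 lay near the value of a few reads.

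In the trophectoderm list, 5 of 19 were called lower (26.3%, against 1.27% of all genes) and none higher, with a median of -0.31. Cdx2, a homeobox factor of the trophectoderm, stood at 4.18 in state 1, 32.0 in the total population, 25.9 in state 2 and 400.1 in state 3 (log2 -2.67; ENSMUSG00000029646.3, chr5:147300900-147307249). The other 4 calls were the epithelial keratins Krt7 (5.18 against 49.3, log2 -3.02), Krt19 (19.4 against 116, log2 -2.52) and Krt8 (189 against 739, log2 -1.96) and the factor Hand1 (0.65 against 8.76). Hand1 in state 1 lies under the 0.96 that about 3 reads over the group are worth. Eomes, another trophectoderm and mesoderm factor, stood at 35.5 in state 1 and 32.2 in the total population and was not called.

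In the primitive streak and mesoderm list 3 of 25 were called lower (12%, against 1.27% of all genes) and none higher. Among them were Hand1 and Wnt3 (4.84 against 25.7, log2 -2.19), which encodes a ligand that helps start the streak. In the neuroectoderm list 2 of 20 were called lower (10.0%) and none higher: Nes, the intermediate filament nestin, stood at 248 in state 1, 813 in the total population, 1759 in state 2 and 5446 in state 3 (log2 -1.71), and Neurod1, a proneural factor, at 46.0 and 85.6 (log2 -0.88). The 33 Hox genes gave no call, with a median of -0.73, and 7 of them had a mean of at least 5. Hoxb9 stood at 33.9 in state 1 and 28.1 in the total population.

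**Figure D3:**
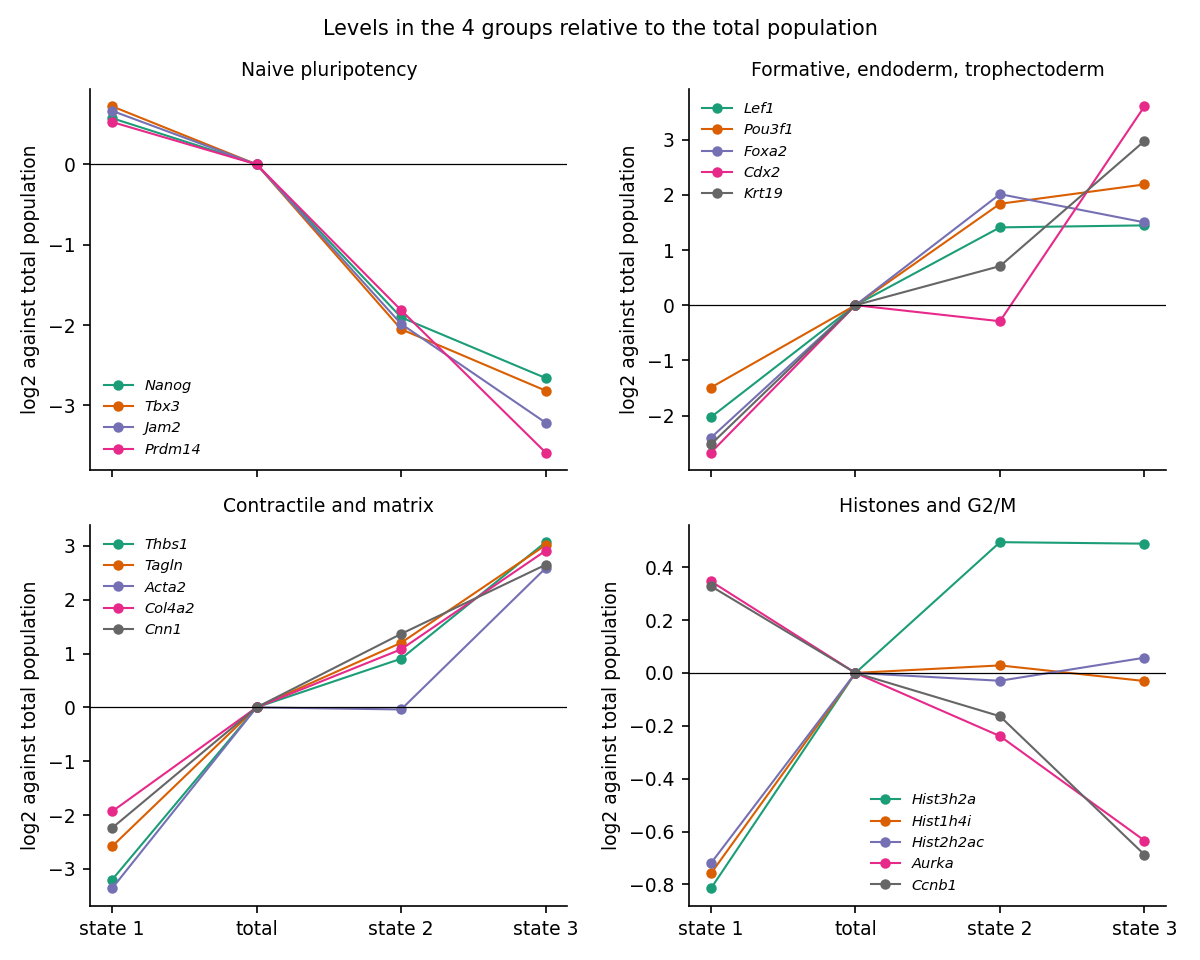
Log2 ratio of each group to the total population, with 1 added to each value, for selected named genes in 4 panels; each point is the authors' merged value of a group and the panels have axes of their own. Naive genes descend from state 1 to state 3, and lineage and contractile genes are lowest in state 1. Most of the latter ascend to state 3, with the total population next to state 1. Foxa2 is lower in state 3 than in state 2, and Cdx2 and Acta2 are lower in state 2 than in the total population. For Hist1h4i and Hist2h2ac state 1 alone is low.

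The 12 named genes with the largest falls in state 1 were taken from called genes with a mean of at least 5 CPM (value over column total) and hold contractile, matrix and epithelial genes. Thbs1 had the lowest ratio of the 12: this secreted matrix glycoprotein stood at 46.6 in state 1, 437 in the total population, 819 in state 2 and 3678 in state 3, a log2 ratio of -3.20 (ENSMUSG00000040152.8, chr2:118111876-118127133). Tagln, an actin-binding protein of smooth muscle, stood at 70.2 in state 1, 425 in the total population, 978 in state 2 and 3445 in state 3 (log2 -2.58; chr9:45929628-45936058). The order of the groups was the same for both, with state 1 far below the rest. The transmembrane semaphorin Sema6a stood at 45.0 and 320 (log2 -2.80), the zinc finger gene Zfp608 at 23.5 and 156 (log2 -2.68), Samd4, an RNA-binding protein, at 33.3 and 186 (log2 -2.45) and Fndc3c1 at 41.4 and 197 (log2 -2.22). Lef1, Krt18, Krt8, Col4a2 and the annexins Anxa2 (46.8 against 167, log2 -1.82) and Anxa3 (59.4 against 200.5, log2 -1.74) complete the 12.

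In the list of cytoskeletal and epithelial-mesenchymal genes 8 of 22 were called lower (36.4%, against 1.27% of all genes) and none higher. The median was -0.84. The smooth muscle calponin Cnn1 stood at 10.0 and 51.0 (log2 -2.24), the myosin light chain Myl9 at 13.5 and 52.6 (log2 -1.89) and the zinc finger repressor Zeb2 at 35.8 and 130.3 (log2 -1.84). The related repressor Zeb1 was not called and lay on the other side, at 458 in state 1, 341 in the total population, 134 in state 2 and 150 in state 3 (log2 0.43). Of 14 targets of the YAP and TEAD factors, which respond to cell shape and tension, 2 were called lower (14.3%): Cyr61 (342 against 718, log2 -1.07) and Ctgf (351 against 585, log2 -0.74).

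Markers of feeder fibroblasts overlap with these genes. Of 19 measured, 4 were called lower (21.1%, against 1.27% of all genes). They were Acta2, smooth muscle actin (11.4 against 126, log2 -3.36), Col3a1, a fibrillar collagen (2.61 against 17.98, log2 -2.39), Thbs1 and Tagln. The list's median log2 ratio was -0.96, with 15 of 19 below 0, and -1.63 over the 14 members with a mean of at least 5. The list sums to 27546 in state 1, 27452 in the total population, 27575 in state 2 and 28951 in state 3, but most of each sum is Fn1, which stem cells also express, at 27060 in state 1 and 25851 in the total population. Lum stood at 0.32 in state 1 and 0.35 in the total population, Prrx1 at 0.97 and 0.33, and Dcn at 0 and 2.05. These values lie near that of a few reads. Other collagens of the list were not called: Col1a2 stood at 2.92 and 10.9 (log2 -1.6), Col5a2 at 4.83 and 17.4 (log2 -1.66) and Col6a1 at 2.58 and 12.9 (log2 -1.96), and the mesenchymal factor Twist1 at 2.26 and 4.76 (log2 -0.82). Col1a1 stood at 23.0 in state 1, 112 in the total population, 107 in state 2 and 827 in state 3 (log2 -2.24, not called). The part of fibroblasts in these differences was not tested. Of 8 blood and macrophage markers none was called, and 1 had a mean of at least 5. Ptprc, the leukocyte antigen CD45, stood at 0.33 and 1.01, near the value of a few reads. Of 9 endothelial markers Flt1 was called lower (9.07 against 38.8, log2 -1.98) and Eng higher (384 against 290, log2 0.41). These are 22.2% of the list, against 1.98% of all genes called. Cdh5, which defines endothelium, stood at 7.41 and 8.19.

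Histone genes set the total population apart from state 1 in another way. Replication-dependent histones package new DNA, are made in S phase, and their mRNAs end in a stem-loop in place of a poly(A) tail, so that libraries from rRNA-depleted total RNA, as here, can capture them. The 24 listed histone genes gave 15 calls, all lower in state 1 (62.5%, against 1.27% of all genes). With all 69 symbols of the 4 Hist clusters, a census added after the list had been seen, 49 were called lower (71.0%) and none higher, at a median log2 ratio of -0.63 (interquartile range -0.73 to -0.58). They make up 13.0% of all genes called lower. Summed over the 69, state 1 held 154027, the total population 234134, state 2 240518 and state 3 225191, so that state 1 stood at 65.8% of the total population. As a share of the column the histones took 0.869% in state 1 and 1.36% in the total population. They took 1.42% in state 2 and 1.30% in state 3, so by share state 1 was low and the others lay closer together. For 15 of the 69 the total population lay above all 3 states, and for 53 within their range. In the Hist3 cluster, of 3 genes, the median log2 ratio to the total population was 0.71 in state 2 and 0.77 in state 3.

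Promoters of the histone genes are shown because these genes differed together and in every class, beside a pair of mitotic genes that differed in the other direction. The 250 bases before the annotated start are given from RefSeq (GRCm38.p6), 5′ to 3′ on the gene's strand, with capitals for matches on either strand to CCAAT (the box bound by NF-Y), TATAAA (the TATA box), ATTTGCAT (the octamer bound by Oct1 and Oct4) and TTTGAA (the cell cycle homology region, CHR); none of these motifs contains another. For Aurka the start in the promoter table is an internal one, and its window lies within the gene's annotated span (chr2:172356190-172370886). The windows lie at chr13:23622559-23622808, minus strand (Hist1h1e), chr11:58954435-58954684, plus (Hist3h2a), chr13:23571150-23571399, plus (Hist1h2bg), chr3:96268404-96268653, plus (Hist2h3b), chr13:22041363-22041612, minus (Hist1h4i), chr2:172370571-172370820, minus (Aurka), and chr13:100786487-100786736, minus (Ccnb1).
Hist1h1e: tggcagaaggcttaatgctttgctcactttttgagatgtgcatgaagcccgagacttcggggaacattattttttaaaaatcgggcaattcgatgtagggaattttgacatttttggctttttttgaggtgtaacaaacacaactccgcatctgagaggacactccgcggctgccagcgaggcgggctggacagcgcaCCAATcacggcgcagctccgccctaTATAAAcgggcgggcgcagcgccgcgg
Hist3h2a: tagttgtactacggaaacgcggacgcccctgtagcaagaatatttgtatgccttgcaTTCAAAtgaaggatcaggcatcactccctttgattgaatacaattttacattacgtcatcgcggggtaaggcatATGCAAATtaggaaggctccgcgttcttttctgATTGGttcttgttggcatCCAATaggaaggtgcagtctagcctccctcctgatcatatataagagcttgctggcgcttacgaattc
Hist1h2bg: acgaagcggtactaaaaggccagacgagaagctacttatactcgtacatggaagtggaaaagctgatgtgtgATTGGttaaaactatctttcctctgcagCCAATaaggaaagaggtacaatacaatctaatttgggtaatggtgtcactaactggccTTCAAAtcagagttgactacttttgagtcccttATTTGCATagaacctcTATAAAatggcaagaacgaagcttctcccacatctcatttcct
Hist2h3b: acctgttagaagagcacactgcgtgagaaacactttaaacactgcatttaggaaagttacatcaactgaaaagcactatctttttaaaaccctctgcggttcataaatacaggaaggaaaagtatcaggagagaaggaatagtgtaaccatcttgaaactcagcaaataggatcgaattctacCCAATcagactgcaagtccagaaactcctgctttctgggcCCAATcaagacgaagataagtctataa
Hist1h4i: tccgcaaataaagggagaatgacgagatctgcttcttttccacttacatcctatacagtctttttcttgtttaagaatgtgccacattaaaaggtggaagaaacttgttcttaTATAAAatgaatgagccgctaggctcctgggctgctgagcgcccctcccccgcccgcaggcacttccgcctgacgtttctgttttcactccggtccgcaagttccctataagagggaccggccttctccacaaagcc
Aurka: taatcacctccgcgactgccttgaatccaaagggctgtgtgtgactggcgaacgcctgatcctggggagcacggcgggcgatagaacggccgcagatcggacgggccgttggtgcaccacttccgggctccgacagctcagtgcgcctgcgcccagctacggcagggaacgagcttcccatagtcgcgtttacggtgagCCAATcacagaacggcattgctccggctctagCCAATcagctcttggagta
Ccnb1: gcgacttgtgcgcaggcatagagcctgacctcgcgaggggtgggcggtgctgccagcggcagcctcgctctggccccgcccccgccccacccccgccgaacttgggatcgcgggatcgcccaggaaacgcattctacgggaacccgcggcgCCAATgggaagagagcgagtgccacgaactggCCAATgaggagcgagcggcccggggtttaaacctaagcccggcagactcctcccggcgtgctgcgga

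Of the 69 histone symbols 60 matched a promoter. CCAAT was found in 50 of the 60 (83.3%), against 34.5% of the 27025 promoters of all genes, TATAAA in 29 (48.3%, against 13.0%), the octamer in 13 (21.7%, against 1.61%) and TTTGAA in 26 (43.3%, against 16.3%). The classes differed: CCAAT was in 6 of 6 H1, 17 of 17 H2A, 16 of 16 H2B and 8 of 9 H3 promoters but in 3 of 12 H4 promoters, as in that of Hist1h4i above, and the octamer was in 7 H2A and 6 H2B promoters and in no promoter of the other classes. Of the 20 listed G2 and M phase genes 16 matched, with CCAAT in 14 (87.5%), TTTGAA in 6 (37.5%) and TATAAA in none. These matches describe letters in a window and are not binding sites.

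All 5 histone classes were lower in state 1, by like amounts. The linker histone H1 had 4 of 6 called with a median of -0.58, H2A 14 of 20 (-0.65), H2B 14 of 19 (-0.63), H3 8 of 11 (-0.61) and H4 9 of 13 (-0.73). All 4 clusters took part: 39 of 56 in Hist1, 6 of 9 in Hist2, 3 of 3 in Hist3 and the single gene of Hist4 were called lower. Hist1h1e stood at 4566 in state 1 and 6837 in the total population (log2 -0.58). Hist3h2a stood at 1147 in state 1, 2019 in the total population, 2844 in state 2 and 2833 in state 3 (log2 -0.81). Hist1h2bg stood at 5141 and 7592 (log2 -0.56), Hist2h3b at 2075 and 3297 (log2 -0.67) and Hist1h4i at 933 and 1579 (log2 -0.76). Hist4h4 (1027 against 1735, log2 -0.76) and Hist2h2ac (972 against 1601, log2 -0.72) completed the named members.

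State 1 was the lowest of the 4 groups for 68 of the 69; the exception was Hist1h2aj, listed at 2.86 in state 1 and at 0 in the total population. For 45 of the 49 called histones the likeliest pattern set state 1 apart from the other 3 groups, which it held equal. Over all 588 called genes that pattern was the likeliest for 78, while 320 had all 4 groups apart. The 45 and the 78 rest on the inferred order of the patterns, and the 320 does not. Many histone genes are near-identical copies, and how reads shared between copies were divided is not stated for this table, so values of single copies are uncertain and the 69 are not independent observations. Of the replacement histones looked up, 3 were not called: H2afz stood at 9322 in state 1 and 8741 in the total population (log2 0.09), H3f3a at 6690 and 6604 (log2 0.02) and H3f3b at 5660 and 5984 (log2 -0.08). The 4th, Cenpa, the centromeric H3 made in G2, was called higher, at 1904 against 1526 (log2 0.32). These 4 were chosen after the histone values were seen.

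**Figure D4:**
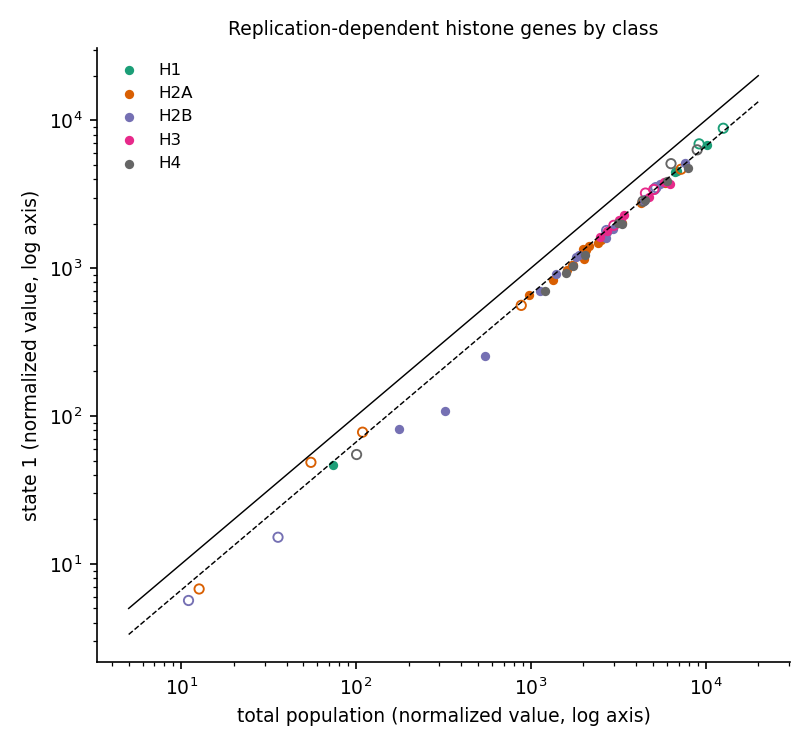
State 1 against total population (normalized values, both axes log) for histone genes with at least 5 in either group, coloured by class; filled points were called, open points were not, the solid line marks equal values and the dashed line a state 1 value 1.5-fold lower. Every plotted gene lies below the line of equal values, and most lie near the dashed line in all 5 classes.

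Genes of G2 and mitosis were higher in state 1, by small amounts. Of 20 listed, 7 were called higher (35%, against 0.707% of all genes) and none lower, with a median of 0.17. Aurka, a kinase of the spindle poles, stood at 2178 in state 1, 1713 in the total population, 1451 in state 2 and 1103 in state 3 (log2 0.35). Ccnb1, the cyclin of mitotic entry, stood at 6411 in state 1, 5107 in the total population, 4559 in state 2 and 3171 in state 3 (log2 0.33), and its partner kinase Cdk1 at 2972 and 2389 (log2 0.32). State 1 was highest, the total population second and state 3 lowest for each of these. Aurkb (log2 0.33), Plk1 (0.28), Bub1b (0.20) and Tpx2 (0.18) were the other calls. Not all mitotic genes went this way: Mki67 stood at 8340 and 9773 (log2 -0.23) and Cenpe at 2176 and 2727 (log2 -0.33), without a call.

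Of 20 genes of G1 and S phase, 1 was called lower (5%) and none higher. Of all genes 1.27% were called lower, and of protein-coding genes 3.11% were called in either direction. The called gene, Ccne2, a cyclin of S phase entry, was lower in state 1 (178 against 292, log2 -0.71). The other 19 were not called; Pcna, the replication clamp, stood at 3888 and 4071 (log2 -0.07) and the helicase subunit Mcm5 at 11445 and 10360 (log2 0.14). The histone regulators Slbp, which binds the stem-loop, and Npat, which activates histone genes in S phase, both looked up after the histone values were seen, stood at 1620 against 1713 (log2 -0.08) and 1206 against 1338 (log2 -0.15).

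Signs of library makeup were read beside the histones. The genes of the mitochondrial genome took 0.945% of the state 1 column and 1.15% of the total population. They took 1.10% of state 2 and 1.09% of state 3, so state 1 was lowest here too. Over 13 genes the median log2 ratio was -0.27, with 12 below 0 and no call. The ratios ran from -0.72 (mt-Nd4l) to 0.07 (mt-Co3). The most abundant of them, mt-Co1, stood at 92664 and 101757 (log2 -0.14) and mt-Nd1 at 22557 and 27223 (log2 -0.27). The most abundant feature, the noncoding Gm26917, took 12.6% of the state 1 column and 10.4% of the total population. Of 18 nuclear noncoding RNAs none was called, with Rn7sk at 130594 and 135596 (log2 -0.05) and Malat1 at 67761 and 67364 (log2 0.01); the 18 snoRNA host genes (median 0.12), among them Gas5 at 3885 and 3525 (log2 0.14) and Snhg1 at 2449 and 2081 (log2 0.23), and the 24 ribosomal protein genes (median 0.12), among them Rpl4 at 31849 and 31818 (log2 0.00) and Rps2 at 31882 and 28932 (log2 0.14), gave no call either. The part of RNA composition in the histone difference was not tested.

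Genes that respond to handling or stress were mostly not called. The immediate-early and dissociation genes had 2 of 18 called, both lower in state 1 (11.1%, against 1.27% of all genes): Ier3 (44.5 against 72.2, log2 -0.69) and the factor Klf6 (495 against 792, log2 -0.68). Their median was -0.38. None of 20 heat shock and unfolded protein genes was called (median 0.02), with Hsp90ab1 at 94597 and 92211 (log2 0.04) and Hsp90aa1 at 67727 and 72022 (log2 -0.09). Of 18 targets of p53 Sesn2, a stress-induced sestrin, was called higher (2170 against 1792, log2 0.28), 5.56% of the list against 0.707% of all genes. None of 22 hypoxia and glycolysis genes was called, with Gapdh at 58911 and 56555 (log2 0.06) and Pkm at 35658 and 35544 (log2 0.00).

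Among signalling targets, every call was lower in state 1. Of 13 Nodal and BMP targets, 3 were called lower (23.1%, against 1.27% of all genes), among them the Nodal antagonist Lefty1 (272 in state 1, 813 in the total population, 2947 in state 2, 2824 in state 3, log2 -1.58; chr1:180935022-180938401) and the Smad co-repressor Skil (2272 against 3702, log2 -0.70). Of 13 Wnt targets Lef1 alone was called (7.69%), of 15 FGF and ERK targets Ier3 alone (6.67%), and of 12 LIF and STAT3 targets none; Lifr, the LIF receptor, stood at 3032 and 2781 (log2 0.12). In the cholesterol list 3 of 18 were called lower (16.7%), among them Lss (810 against 991, log2 -0.29) and Insig1 (702 against 846, log2 -0.27). In the interferon list 2 of 21 were called lower (9.52%, against 1.27% of all genes), and the median was 0.01. The GTPase Gbp2 stood at 1.94 in state 1, 25.5 in the total population, 65.4 in state 2 and 247 in state 3 (log2 -3.17). The other call, Oasl2, stood at 4.17 and 16.4 (log2 -1.75).

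Germline genes gave no call among 19 (median -0.03), with Piwil2 at 489 and 390 (log2 0.33) and Stra8 at 383 and 329 (log2 0.22). The 2-cell-like list, of genes that mark rare cells resembling the embryo at its first cleavage, gave none among 16. Its median log2 ratio was 0.64, with 12 members above 0 and 2 below. Eif1a, the 1 member with a mean of at least 5, stood at 2799 and 2678 (log2 0.06). Zscan4f, among the 2 below 0, stood at 1.45 in state 1 and 2.28 in the total population. Zscan4c went the other way, at 2.94 and 0. Both lie near the value of a few reads.

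The 12 named genes with the largest rises in state 1 were all less than 2-fold higher. Aqp3, a channel for water and glycerol, stood at 431 in state 1, 235 in the total population, 75.3 in state 2 and 36.0 in state 3 (log2 0.87; ENSMUSG00000028435.8, chr4:41092724-41098183). Calcoco2, an autophagy receptor, stood at 407 in state 1, 222 in the total population, 74.5 in state 2 and 45.5 in state 3 (log2 0.87). For both, the total population lay between state 1 and state 2. The zinc finger factor Casz1 (706 against 413, log2 0.77), the riboflavin transporter Slc52a3 (136 against 79.7, log2 0.76) and Tbx3 followed. The RNase Zc3h12a (411 against 251, log2 0.71), the tetraspanin Cd37 (118 against 71.8, log2 0.71), the growth factor Pdgfa (373 against 230, log2 0.70), the nitric oxide synthase Nos1 (200.1 against 123, log2 0.70), the receptor Notch4 (198 against 124, log2 0.68), the class I-like H2-M5 (355 against 222, log2 0.67) and the forkhead factor Foxn4 (134 against 83.7, log2 0.67) complete the 12. Pdgfa differs from the others in its state 3 value (223), which lay near the total population (230), with state 2 lower (152). State 3 also lay above state 2 for Notch4, Zc3h12a and Nos1, but far below the total population.

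Genes high in a single state show at what level the unsorted culture carried them. For 44 genes at least 4-fold higher in state 1 than in both other states, with at least 50 in state 1, the total population held a median of 64.7% of the state 1 value (interquartile range 60.3% to 70.6%), against 21.1% for state 2 and 9.64% for state 3. Since these genes were picked for a high state 1 value, a lower total population is in part fixed by the choice. Nanog stood at 67.1% and Inhbb, a subunit of activin named here after its values were seen, at 68.4%. The lowest was the snRNA Gm24924, listed at 118 in state 1 and at 0 in the other 3 groups. For 75 genes at least 4-fold higher in state 3 than in both other states, the total population held a median of 13.7% of the state 3 value (11.2% to 15.7%), against 3.53% in state 1 and 18.1% in state 2. For the 13 of these that were at least 8-fold higher the median was 10.3% (7.99% to 12.7%), against 2.62% in state 1 and 9.56% in state 2, with Cdx2 at 7.99%. These genes were picked for low values in states 1 and 2 relative to state 3, so the percents of those states are bounded by the choice. The total population lay above both state 1 and state 2 in 21 of the 75 genes and in 7 of the 13.

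**Figure D5:**
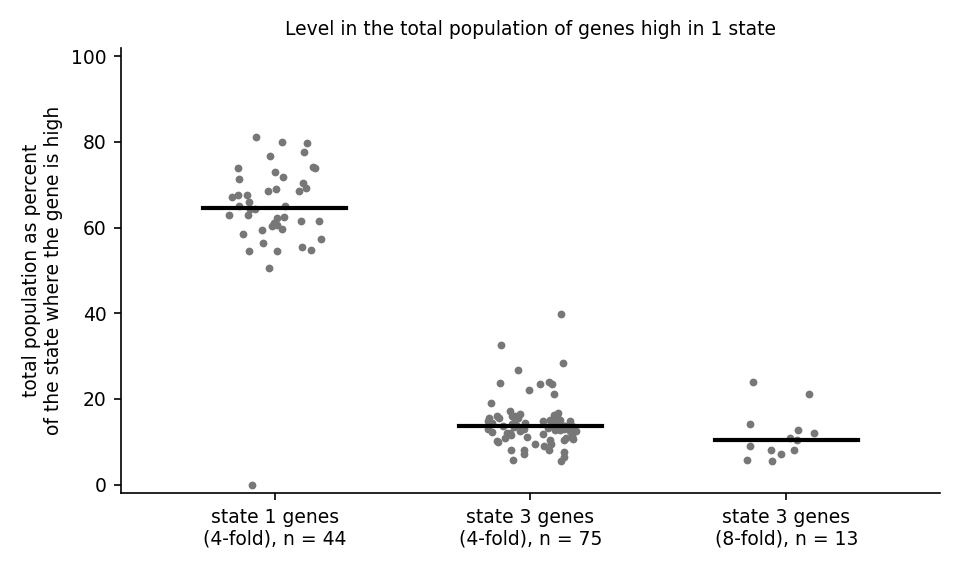
Level in the total population as a percent of the state in which a gene is high, 1 point per gene, for genes at least 4-fold higher in state 1 (44 genes) and at least 4-fold (75) or 8-fold (13) higher in state 3 than in both other states; bars are medians and horizontal jitter has no meaning. The medians are 64.7%, 13.7% and 10.3%.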

How the data were processed

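The members of the comparison, its gene lists and its rules were chosen with earlier results of these data known. RNA was depleted of rRNA and sequenced in strand-marked, paired-end libraries per the labels' protocols; the tools STAR (2.4.1d) and RSEM (1.2.30), on mm10 and GRCm38, are listed by the submitters' processing notes without roles. Per the file headers, the authors deposited a normalized signal per gene and group, which is not per gene length, and a score per gene for each of 15 EBSeq patterns, the posterior probability. The sources used here do not say how libraries were scaled and merged. The commonest low value, taken as 1 read, puts about 55.4 M reads behind state 1 and 52.1 M behind the total population, so a value of 0 allows up to about 0.96 and 0.99 (3 reads, counting error only).

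The patterns were read in the EBSeq order for the columns state 3, state 2, state 1 and total population, an order inferred from the values: groups set equal lay closer than groups set apart in 94.4% of 1453 clear genes, and in 90.8% in the runner-up, with state 1 and the total population swapped. A call of state 1 against the total population is the same under both. Sums were tested on simulated data. A test with values per library, as planned, was not possible, and no p-value was computed. Genes were named by rule: Nanog, Sox2, Pou5f1, the 12 largest called differences in each direction with a mean of at least 5 CPM (value over column total), without predicted genes, pseudogenes and small RNAs, and for each list its most different called members (4 at most) or, lacking calls, the 2 most abundant; other members are named where they complete a count or define a lineage, after their values were seen. The share of all genes called stands beside the first counts. Analyses used Python 3.11.15, pandas 2.3.3 and numpy 2.4.6, and alternatives are in the closing section. Small RNA libraries were not used here, and a few named list members are not reported here.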

Additional observations from a re-analysis of the deposited data

How the results depend on the processing

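The number of called genes stayed within 1.5 times of 588 at a posterior of 0.90 (690) or 0.99 (413), with a mean of at least 5 (581) and without the 69 histone symbols (539, an alternative added after the data were seen). A 1.5-fold minimum left 335 calls, 38 higher and 297 lower in state 1. With state 1 and the total population exchanged in the pattern order the calls were the same 588 in number, while genes with the total population outside the 3 states and apart from them went from 2 to 11. Of the 2-fold differences, a pseudocount of 10 left 7 higher and 145 lower in state 1, no minimum gave 384 and 1151, and a mean of at least 50 left 4 and 86; quantile rescaling gave 124 higher. Rescaling moved the median gene by at most 0.045 (log2), and under the 6 settings tried none of the 414 values of the 69 called named genes changed sign. The medians of 8 lists, all within 0.10 of 0 or of few measured members, changed sign in 11 settings. No paired analysis was possible because the deposited table holds 1 merged value per group, and leaving out each replicate was not run for the same reason, so the spread between libraries behind every value is unknown.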

Other observations

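Calls were concentrated in protein-coding genes, 561 of 18045 (3.11%), against 2 of 1975 lincRNA genes (0.101%), 3 of 1514 antisense genes (0.198%), 6 of 3531 processed pseudogenes (0.170%) and 0 of 264 snoRNA genes; levels differ between these classes and were not matched. Whether reads were counted by strand is not stated, so an antisense gene and its partner cannot be told apart. The snRNA features Gm22614 (79.1 in state 1, 332 in the total population, 90.1 in state 2, 75.9 in state 3) and Gm24830 (26.3, 86.6, 32.0 and 35.1) stood higher in the total population than in each sorted state, without a call. Gm26232 held the same values as Gm24830.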
